A study of Haemaphysalis flava with 2 samples.

Results

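The metalloproteases described here are 161 of 54357 assembled contigs from the salivary glands of a hard tick, Haemaphysalis flava, which feeds on blood. They were chosen by the name of their best-matching protein, which had to hold the word metalloprotease, metalloproteinase, metallopeptidase, reprolysin or metis. Names of neprilysins, endothelin- or angiotensin-converting enzymes, astacins, matrix proteases, inhibitors, mitochondrial proteins, exopeptidases and toxins were left out. The name is that of the best match, often in another tick species, and the rule uses no expression value. RNA was sequenced from salivary glands of engorged ticks, which had fed to the end, and of semi-engorged ticks, which were part of the way through the meal. The series text speaks of 50 ticks at each stage and 100 glands. Each stage has 1 library, treated as 1 pool. Sex, age, host and hours of feeding are not given in the labels, and no treatment other than feeding stage separates the groups.

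Reprolysins are zinc-dependent proteases of the adamalysin family, related to the haemorrhagic metalloproteases of snake venom and to the ADAM proteins of animals. They are made as inactive precursors with a propeptide, are held in shape by disulfide bonds and are released into saliva. In Ixodes ticks, metalloprotease activity of saliva breaks down fibrin and fibrinogen, the proteins of the blood clot, and the Metis proteins of Ixodes ricinus belong to this family. Ticks carry many related copies, which makes them a multigene family whose contigs can share reads.

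The engorged library held 57892372 reads on contigs and the semi-engorged library 54039984. Levels are given as reads or, between contigs, as RPKM, the reads per kilobase of contig and per 1000000 reads of the library, as the authors deposited it. Contig lengths derived from reads and RPKM ran from 311 to 6515 bases among the members, with a median of 832. Of the 161 members, 158 had at least 20 reads over both libraries and were compared. A call of higher in 1 library needed a log2 fold of at least 1 between CPM + 1 values (CPM is reads per 1000000 library reads). Positive log2 folds are higher in the engorged library. With 1 library per stage there is no replicate check, no p-value and no standard error, and every difference describes these libraries. Intervals are 95%. Those of read shares and CPM ratios cover counting error only. Those of medians are order statistics over contigs, many of which share a best match, and cover no difference between ticks. In glands taken whole, fewer cells of a type and less RNA per cell cannot be told apart.

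The family as a whole stood lower in the engorged library. Metalloprotease contigs took 388869 engorged reads, 0.672% of that library (Wilson interval 0.670% to 0.674%), and 533125 semi-engorged reads, 0.987% (0.984% to 0.989%), a ratio of shares of 0.681. Of the 158 contigs compared, 79 (50.0%) were called on the semi-engorged side and 25 (15.8%) on the engorged side. Over all 47965 contigs compared, 15.5% were on the semi-engorged side and 6257 on the engorged side, 28.5% in all. Over the 18950 that carry a description, as members must, 16.6% and 15.4% were. The remaining 54 metalloproteases were in neither class, 20 of them below 1 CPM in both libraries, where no call can be made. The median log2 fold was -0.97 (order statistic interval -1.73 to -0.58), beside -0.05 over all contigs compared and 0.01 over the described ones. It was -1.83 with a pseudocount of 0.1, -0.45 with 10, and -1.70 over contigs with at least 100 reads. Single contigs spanned log2 folds from -8.91 to 8.13.

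Abundant contigs are called more often in general, so the counts were also read at like depth. With a minimum of 1000 reads in whichever library was higher, 53 of 84 metalloproteases (63.1%) were higher in the semi-engorged library, against 28.7% of all such contigs, and 15 (17.9%) in the engorged library, against 30.1%. At a minimum of 10000 reads, 14 of 25 (56.0%, against 42.4%) were higher in the semi-engorged library and 8 (32.0%, against 32.0%) in the engorged library. At both depths the share called semi-engorged was above that of all contigs, and the share called engorged was not. By contig length, 33 of 65 members over 1000 bases, 28 of 53 between 500 and 1000 bases and 18 of 40 shorter ones were on the semi-engorged side, so that side led in each length class.

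The most abundant members differed between the libraries. By RPKM, the highest in the engorged library was contig_129, at 649 engorged and 10.8 semi-engorged RPKM. It was followed by contig_254, at 573 engorged and 436 semi-engorged RPKM. Next came contig_1385, at 457 engorged and 40.8 semi-engorged RPKM, and contig_1834, at 433 engorged and 25.6 semi-engorged RPKM. Of these only contig_254 was also near the top of the semi-engorged library, where it ranked 1st. The semi-engorged order went on with contig_25258, at 410 semi-engorged and 4.48 engorged RPKM. It was followed by contig_14571, at 379 semi-engorged and 1.31 engorged RPKM, and by contig_44183, at 346 semi-engorged and 0.047 engorged RPKM. The 8 highest members of each library shared 3 contigs (contig_254, contig_256 and contig_5138), and the 20 highest shared 4. At 100 RPKM or more, 7 members were found in both libraries, 11 at full engorgement alone and 27 at semi-engorgement alone. Such overlaps are not given here over all contigs, so whether they are particular to this family was not tested.

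**Figure D1:**
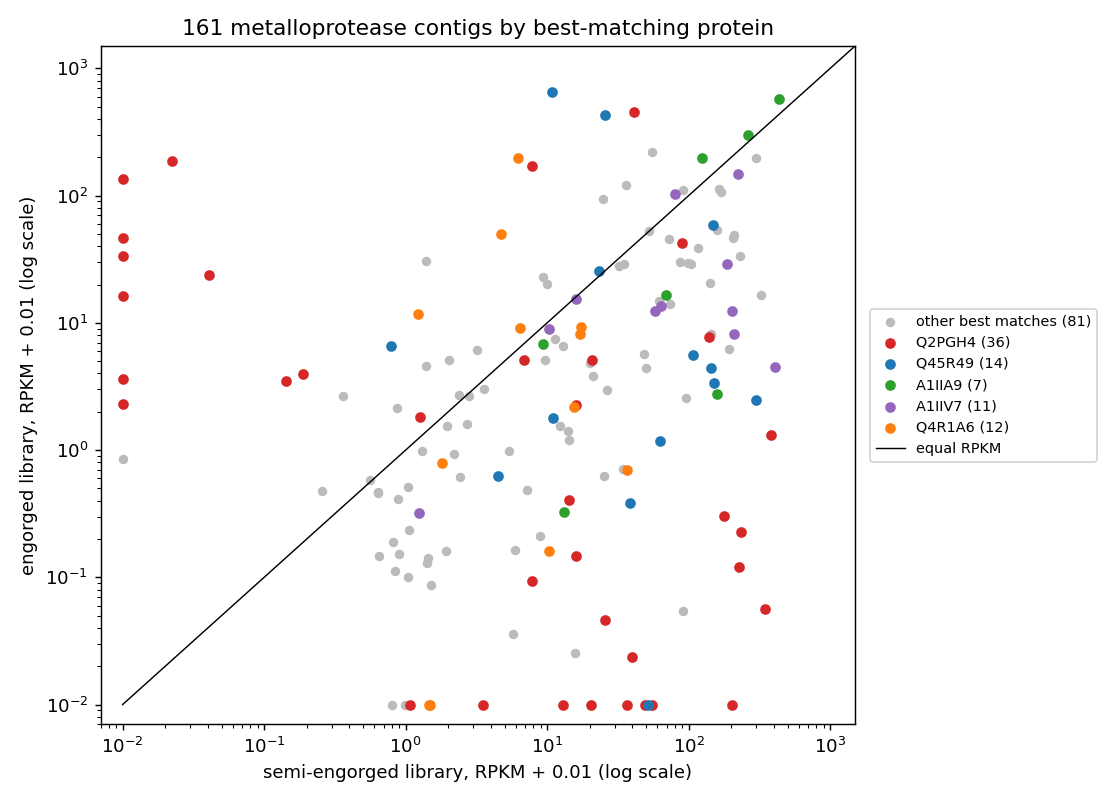
RPKM of each of the 161 metalloprotease contigs in the engorged library (vertical, log scale) against the semi-engorged library (horizontal, log scale), with 0.01 added so that contigs at 0 can be drawn at the edges. Colours mark 5 best-matching proteins, with the number of contigs in brackets, and the line marks equal RPKM. More points lie on the semi-engorged side of the line, and many contigs matching Q2PGH4 lie at or near an edge.

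The 161 contigs shared 43 best-matching proteins, so most were compared with others of the same name. Proteins of Haemaphysalis longicornis, a tick of the same genus, were the best match of 81 contigs, and those of Rhipicephalus pulchellus of 47. Boophilus microplus matched 14, Ixodes scapularis 11 and Amblyomma variegatum 4. The semi-engorged side led among the first 3 of these species, with 40 of 80, 26 of 45 and 10 of 14 contigs higher there, against 16, 4 and 3 in the engorged library. The 11 Ixodes scapularis matches counted 2 engorged and 0 semi-engorged calls, but 6 of them lay below 1 CPM in both libraries, where no call can be made. By CPM alone 7 of the 11 were higher in the semi-engorged library, and their median log2 fold was -0.42. The single Metis contig, contig_27791, which matched Metis3 of Ixodes ricinus and was picked out for its name, had 31 engorged and 233 semi-engorged reads.

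The largest group, 36 contigs, matched Q2PGH4, a metalloprotease fragment of Haemaphysalis longicornis with the gene tag met. It held 92529 engorged and 146863 semi-engorged reads, and its contigs went both ways, with 12 on the engorged side, 21 on the semi-engorged side and 3 in neither class. The most abundant, contig_1385, had 39378 engorged and 3284 semi-engorged reads, a CPM ratio of 11.2 (Clopper-Pearson interval 10.8 to 11.6). Another, contig_1719, had 13832 engorged and 592 semi-engorged reads, 21.8-fold higher in the engorged library (20.1 to 23.7). In the other direction, contig_14571 had 83 engorged and 22332 semi-engorged reads, 288-fold higher in the semi-engorged library (232 to 362). Contigs under this one name were thus among the highest of each library.

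Many contigs of this group had reads almost wholly from 1 library. Of the 33 that reached 100 reads in either library, 9 had at most 10 reads in the semi-engorged and 12 at most 10 in the engorged library, a limit chosen after the values were seen. Together these are 63.6% of the 33. Among the 98 other metalloproteases of that depth 0 and 7 met the same limits, and among all 26186 contigs of that depth 2.12% and 7.57% did. The 9 contigs of the engorged side held 36151 engorged and 14 semi-engorged reads. The 12 of the semi-engorged side held 21 engorged and 74371 semi-engorged reads. These sets made up 39.1% of the group's engorged reads and 50.6% of its semi-engorged reads. Their median lengths were alike, 1193 and 1243 bases.

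Among the contigs of the engorged side, contig_1993 had 16411 engorged reads and 1 semi-engorged read, contig_15831 had 1635 and 2, and 3 others named by fold had no semi-engorged read. Of these, contig_5040 had 11021 engorged reads and was at least 3429-fold higher than a floor of 3 semi-engorged reads. The counts of contig_3573 and contig_8001 were 3707 and 2375 engorged reads, at least 1153-fold and 739-fold higher than that floor. On the semi-engorged side, contig_44183 had 4 engorged and 27655 semi-engorged reads. There contig_34056 had 8 engorged and 15271 semi-engorged reads, 2045-fold higher (1038 to 4738). The counts of contig_14065 were 16 and 15969 and those of contig_31847 were 22 and 12466, both just above the limit of 10 reads. With 0 engorged and 15931 semi-engorged reads, contig_49666 was at least 5689-fold higher than a floor of 3 engorged reads. It belongs to a block of 6025 contigs numbered 49600 and above, of which 65.6% have no engorged read and 0% no semi-engorged read. The block's start was set, after its values were seen, by these zeros. From there on every window of 100 numbers has over 25% of contigs with no engorged read, so a high share is built in. That block holds 10 of the 161 metalloproteases and 4 of the 12 contigs just described. The part of the block in these counts was measured by leaving it out, which kept 9 and 8 of 29 Q2PGH4 contigs on the 2 sides. Among all contigs of that depth outside the block, 2.23% and 3.90% met the same limits.

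The 14 contigs matching Q45R49, the salivary gland metalloprotease MP3 of Boophilus microplus, held the most engorged reads of any best match. With 10 contigs higher in the semi-engorged library and 3 in the engorged library, their median log2 fold was -3.07, yet their summed reads were 1.86-fold higher in the engorged library (99673 engorged against 49905 semi-engorged reads). A pair of contigs made that sum. One was contig_129, with 47450 engorged and 740 semi-engorged reads and a CPM ratio of 59.9 (55.7 to 64.4). The other was contig_1834, with 47135 and 2604 reads and a ratio of 16.9 (16.2 to 17.6). They held 24.3% of metalloprotease reads at full engorgement and 0.627% at semi-engorgement. On the other side contig_142 had 120 engorged and 13548 semi-engorged reads, 121-fold higher in the semi-engorged library (101 to 146).

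The 7 contigs matching A1IIA9 (gene tag hlESTMP1) held abundant members that differed little between the libraries. The 3 highest, contig_254, contig_255 and contig_256, had 27058, 12109 and 18851 engorged and 19217, 7172 and 15330 semi-engorged reads, with CPM ratios of 1.31 (1.29 to 1.34), 1.58 (1.53 to 1.62) and 1.15 (1.12 to 1.17). None reached a 2-fold difference, and together they held 14.9% and 7.83% of metalloprotease reads at the 2 stages, engorged first. The group's summed reads stood at 59780 and 56477, a CPM ratio of 0.988. Of its other 4 contigs, 3 were higher in the semi-engorged library.

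The 11 contigs matching A1IIV7 (gene tag hlMP4) leaned to the semi-engorged side. Calls were 6 there and 0 on the engorged side, with a median log2 fold of -2.10 and summed reads of 15378 engorged and 99492 semi-engorged. Its share of metalloprotease reads was 3.95% at full engorgement and 18.7% at semi-engorgement. The most abundant, contig_25258, had 490 engorged and 41879 semi-engorged reads, 91.6-fold higher in the semi-engorged library (83.8 to 100.3). Of the other 5, in neither class, contig_20260 had the highest log2 fold, 0.35, with 2286 engorged and 1657 semi-engorged reads.

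The 12 contigs matching Q4R1A6, an entry of Haemaphysalis longicornis not marked as a fragment, went both ways and summed to the engorged side. Calls were 3 on the engorged and 4 on the semi-engorged side, while summed reads were 29312 engorged and 9821 semi-engorged, 2.79-fold higher in the engorged library. Its most abundant contig, contig_920, had 18903 engorged and 560 semi-engorged reads, a ratio of 31.5 (29.0 to 34.3). Without that contig the group's larger counts were on both sides, with contig_1018 at 7447 engorged and 649 semi-engorged reads and contig_21273 at 63 and 3130, both named after their values were seen.

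Other groups of Haemaphysalis longicornis matches held fewer reads. Q2PGH5 counted 0 and 5 of 8 contigs, engorged and semi-engorged side in that order, and its most abundant contig_1530 had 6715 engorged and 5133 semi-engorged reads, a ratio of 1.22 (1.18 to 1.27). Q2PGH7 counted 1 and 0 of 4, led by contig_3434 with 627 engorged and 238 semi-engorged reads, a ratio of 2.46 (2.11 to 2.87). That call and the call of contig_4633, the leading contig of B7PTJ6 from Ixodes scapularis (333 and 122 reads), were lost with a pseudocount of 10 and with the median ratio of abundant contigs set to 0.

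Contigs matching the putative tick salivary metalloproteases of Rhipicephalus pulchellus were mostly higher in the semi-engorged library. L7LRW3 counted 0 and 4 of 4, L7LR38 0 and 5 of 5, L7LRE5 0 and 2 of 7 and L7LRF3 1 and 3 of 4. The leading contigs of the first 2 were contig_7839, with 862 engorged and 2403 semi-engorged reads, and contig_19405, with 214 and 2246. For L7LRE5, contig_2412 had 1390 engorged and 25289 semi-engorged reads, 19.5-fold higher in the semi-engorged library (18.5 to 20.6), whereas First_Contig20 had 6174 and 9189, a difference below 2-fold. L7LRF3 held contig_1756, 6.94-fold higher in the semi-engorged library (6.55 to 7.37), and contig_6595, 4.04-fold higher on the engorged side (3.81 to 4.28). The short contig_5138, of 532 bases, ranked high in both libraries at 199 engorged and 299 semi-engorged RPKM.

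**Figure D2:**
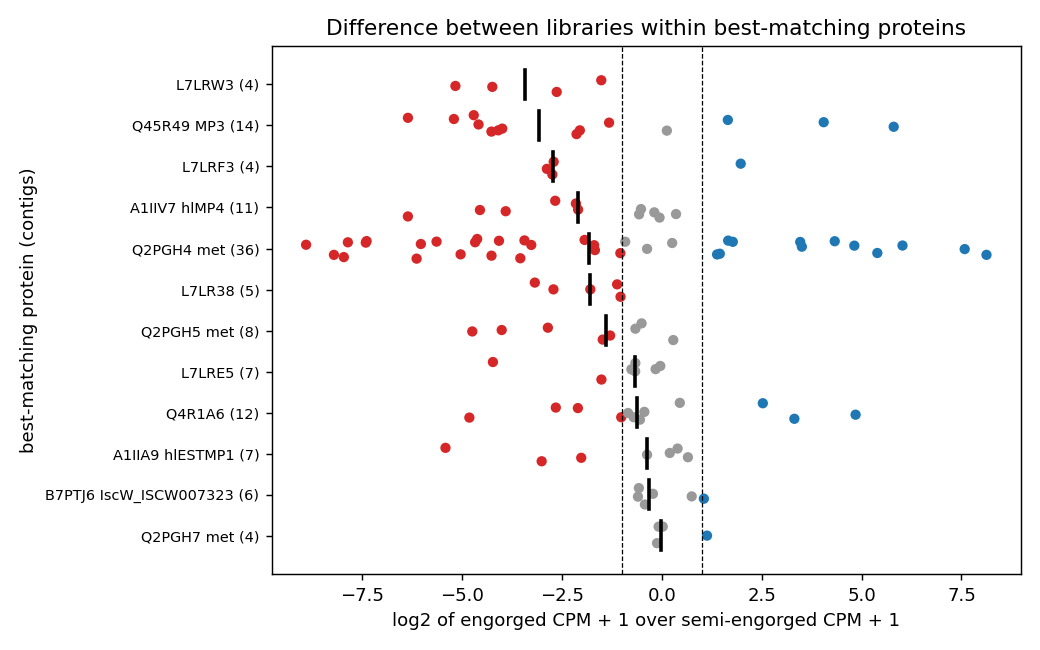
Log2 fold of CPM + 1, engorged over semi-engorged (horizontal), for each contig of the 12 best-matching proteins with at least 3 contigs compared (vertical, with the gene tag where there is one and the number of contigs). Blue points are called higher in the engorged library, red points in the semi-engorged library and grey points in neither, dashed lines mark the calls, black bars mark medians, and vertical scatter within a group is arbitrary; 4 of the 12 proteins hold calls on both sides.

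Across the 12 proteins with at least 3 contigs compared, which hold 118 contigs, 4 had calls on both sides, 6 on the semi-engorged side alone and 2 on the engorged side alone. With reads summed over each of the 43 proteins, 4 came out on the engorged and 15 on the semi-engorged side. The 4 were Q4R1A6, L7LTR6, B7QKW5 and L7MHC7, and not Q45R49, whose 1.86-fold difference is under the call. B7QKW5 is a disintegrin name and L7MHC7 a meprin name, which are set apart below as pointing to other metalloproteases. The other 31 best matches, each with fewer than 3 contigs compared, held 40 compared contigs, of which 4 were on the engorged side, 16 on the semi-engorged side and 20 in neither class. Examples, picked after their values were seen, are contig_176 with 8410 engorged and 2338 semi-engorged reads and contig_807 with 5890 and 18323. The 3 members left out of the comparison held 15 engorged and 34 semi-engorged reads in all.

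Metalloprotease reads were spread over more contigs in the semi-engorged library. The 5 contigs with most reads held 46.3% of engorged and 25.6% of semi-engorged metalloprotease reads, and the top 10 held 65.0% and 41.3%. Reaching 50% of these reads took 6 contigs in the first case and 14 in the second. The effective number of contigs (the exponential of the Shannon entropy of their read shares) was 29.0 and 55.7. At 10 RPKM or more, 53 members were found at full engorgement and 93 at semi-engorgement, with 40 found at both stages. Like values over all contigs are not given here.

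**Figure D3:**
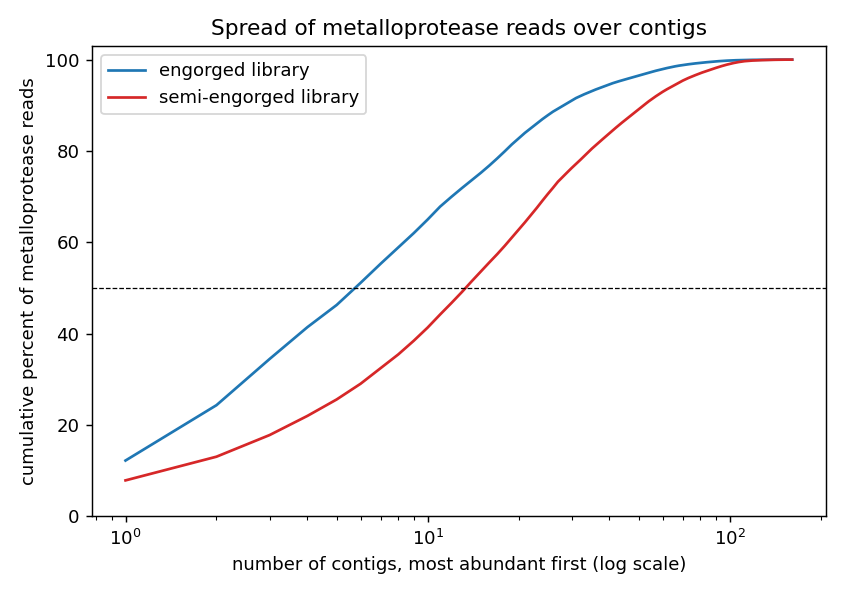
Cumulative percent of all metalloprotease reads of a library (vertical) against the number of contigs counted from the most abundant (horizontal, log scale), for the engorged (blue) and the semi-engorged library (red). The dashed line marks 50%, reached with 6 contigs on the blue and 14 on the red curve.

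Some members had contig numbers that follow each other. There were 12 such neighbouring pairs with both contigs in the family, and in all 12 both had the same best match. Pairs with a contig outside the family were not counted, so no rate of sharing among neighbours is given. What the numbering stands for is not given in the sources used here, and no contig sequence was used here to tell copies, alleles and fragments apart. Of the 12 pairs, 5 were called in opposite directions, 2 were both semi-engorged, 2 both engorged, 2 both in neither class and 1 had a single call. Pairs can share a contig, and contig_921 forms an opposite pair with each of its neighbours. The rate of opposite calls among neighbours over all contigs is not given here. In the run contig_920, contig_921 and contig_922, all matching Q4R1A6, engorged reads were 18903, 357 and 671 and semi-engorged reads 560, 2385 and 64. In the run contig_15831, contig_15832 and contig_15833, all matching Q2PGH4, engorged reads were 1635, 0 and 6 and semi-engorged reads 2, 1326 and 521. The middle contig of the first run and the first contig of the second thus differ in side from their neighbours. In the run contig_254 to contig_256 no contig was called, and each had the higher CPM in the engorged library.

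**Figure D4:**
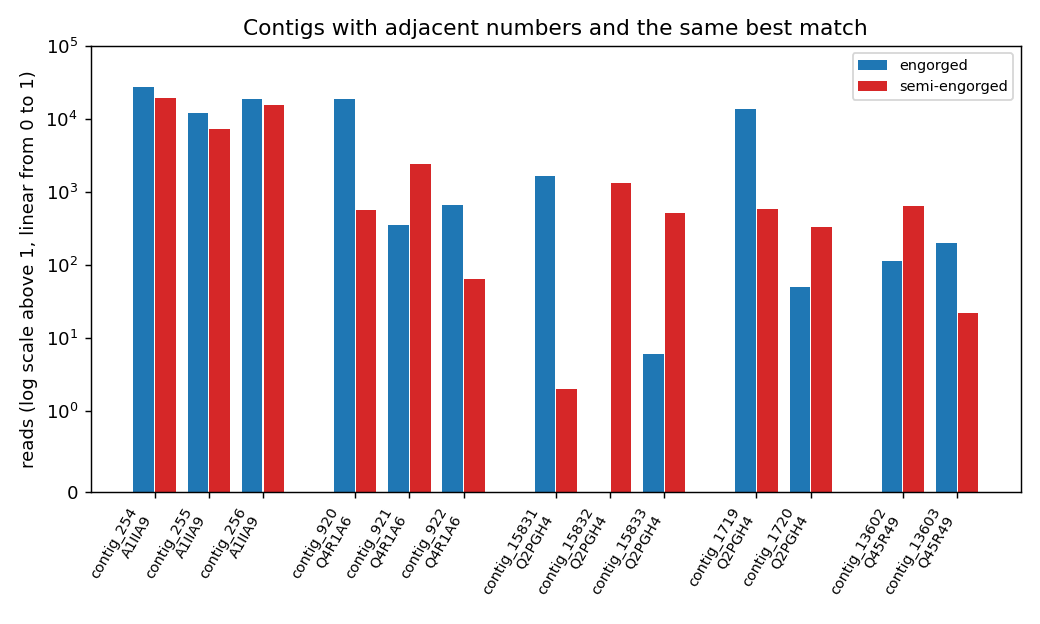
Reads in the engorged (blue) and the semi-engorged library (red) for 5 runs of contigs with adjacent numbers and 1 best match each, on a vertical axis that is linear from 0 to 1 and logarithmic above. The contig_254 run holds no call. The other 4 runs were picked because they hold neighbours called in opposite directions. Not drawn are the pairs contig_2593 and contig_2594, contig_4632 and contig_4633, contig_8000 and contig_8001, and contig_22489 and contig_22490, which hold no opposite calls.

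The word rule also took in 11 contigs whose names point to other metalloproteases than salivary reprolysins. They are 3 disintegrin or ADAMTS names, 2 FtsH proteases, 2 meprins and 4 named zinc metalloprotease with no family. The words that set them apart were chosen after the names were read. ADAM proteins are relatives of reprolysins, as said above. FtsH proteases are ATP-dependent proteases of organelle membranes, and meprins belong to the astacin family. Of the 11, 2 were on the engorged side and 0 on the semi-engorged side, with a median log2 fold of -0.22. Among them 4 lay below 1 CPM in both libraries and could not be called, and all 4 had the higher CPM in the semi-engorged library. A disintegrin metalloprotease, contig_325, had 11538 engorged and 487 semi-engorged reads, 22.1-fold higher on the engorged side (20.2 to 24.3). The FtsH pair had 8966 engorged and 9859 semi-engorged reads in all. Without the 11, the counts were 23 and 79 of 147 and the median was -1.29 (-1.93 to -0.67). None of the 161 names contains the word reprolysin and 1 contains Metis, so whether the other 150 carry a reprolysin domain was not tested here.

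Genes of kinds that can act on secreted proteases were looked at through word lists. Whether they act on these metalloproteases was not tested. For disulfide formation, 5 of 10 contigs were on the semi-engorged side and 0 on the engorged side. Protein disulfide isomerases form and reshuffle these bonds in the endoplasmic reticulum. Of them contig_3443 had 14923 engorged and 104451 semi-engorged reads, 7.50-fold higher in the semi-engorged library (7.37 to 7.63), and contig_15 had 34010 and 100042, 3.15-fold higher (3.11 to 3.19). The list's summed share of reads was 0.134% at full engorgement and 0.560% at semi-engorgement. The furin list, proteases that cut propeptides from precursors, held 2 contigs, with log2 folds of 0.39 (contig_8672) and 0.26 (contig_16909) and no call. Macroglobulins, which trap proteases of many kinds, counted 2 and 0 of 5, led by First_Contig334 with 1055 engorged and 292 semi-engorged reads, 3.37-fold higher on the engorged side (2.96 to 3.85). The macroglobulin list also searched for tissue inhibitors of metalloproteinases and found none by name. The other ADAMTS names, outside the family rule, counted 1 and 0 of 3.

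Other salivary families and peptidases are given beside these values. Lipocalins counted 38 and 78 of 148 and Kunitz-type inhibitors 18 and 33 of 63, with medians of -1.12 and -1.52. Lipocalins took 0.202% of engorged and 0.522% of semi-engorged reads, a ratio of shares of 0.386. Kunitz-type inhibitors took 0.526% of engorged and 0.609% of semi-engorged reads, a ratio of 0.864. Other metallopeptidases (neprilysins, converting enzymes, exopeptidases) counted 15 and 8 of 92, with a median of 0.04 and shares of 0.154% and 0.154%. By the limit of at most 10 reads in 1 library, 28 of 131 metalloproteases of at least 100 reads (21.4%) stood on 1 side, against 65.5% of lipocalins, 62.3% of Kunitz contigs and 1.54% of other metallopeptidases. Among all contigs of that depth 9.69% did, and among the described ones 6.91%. The family's value rested on its Q2PGH4 contigs, which at 63.6% came near the lipocalins and Kunitz contigs. The other 98 metalloproteases of that depth, at 7.14%, came near the described contigs. These differences between lists were not tested.

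Markers of other cells moved in part with the same side. Midgut and cuticle names counted 4 and 24 of 65, with a summed level of 586 engorged and 2147 semi-engorged RPKM over 73 contigs, 3 of them at 0 engorged and 4 at 0 semi-engorged reads. Nerve names counted 7 and 5 of 49, with a median log2 fold of 0.32 (0.02 to 0.52), but their summed level was higher in the semi-engorged library, 833 against 524 RPKM. Haemocyte and fat body names counted 3 and 0 of 29, with summed levels of 1413 engorged and 1692 semi-engorged RPKM. Their shares of reads were alike, 0.207% engorged and 0.205% semi-engorged, and their median log2 fold was 0.18. Muscle names counted 13 and 11 of 87, with 1686 and 1472. Salivary gland names outside the family counted 67 and 116 of 274, with summed levels of 13452 and 20185 RPKM, so the labelled tissue's markers were present in both libraries. That list also takes in contigs named lipocalin, so it overlaps the lipocalins given above. Its shares of reads were 0.901% engorged and 1.308% semi-engorged, a ratio of 0.689, beside 0.681 for the metalloproteases. The lower engorged share of the metalloproteases was thus close to that of salivary gland names outside the family. The part of these markers in the metalloprotease differences was not tested.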

How the data were processed

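RNA from salivary glands at 2 feeding stages was sequenced with TruSeq libraries, per the labels' protocols, and the submitters' processing notes list CASAVA 1.8, TopHat and Cufflinks without saying what each did. How contigs were assembled, annotated and counted, and how reads shared by close copies were assigned, is not given in the sources used here. Per the file headers, the authors deposited a read count and an RPKM value per contig and library. No contig sequence was used here.

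Counts were scaled to CPM of the library total, and log2 folds use CPM + 1. Contigs with at least 20 reads over both libraries were compared, and a log2 fold of 1 was the call. CPM ratios have Clopper-Pearson 95% intervals, and 3 reads served as the floor for a count of 0. The rule for members uses names alone, but it and the lists were chosen with earlier results of these data known. Named contigs are the 8 highest by RPKM in each library, the 8 largest folds in each direction with at least 100 reads, the most abundant contig of each best-matching protein with at least 3 contigs, and the 4 most abundant in neither class. Others are named as chosen after their values were seen, or belong to a described run or list. Alternatives were other pseudocounts, filters, thresholds and scalings (TMM from edgeR 4.0.16), RPKM, 1 contig per description, sums per protein, fewer members and a ratio of shares without the top contigs. The calculations ran in Python 3.11.15 and were tested on simulated data.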

Additional observations from a re-analysis of the deposited data

How the results depend on the processing

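No paired analysis was possible because each stage has 1 library. The semi-engorged count stayed above the engorged count, and the median below 0, under every alternative run. The median log2 fold of -0.97 was -1.83 with a pseudocount of 0.1 and -0.45 with 10, and the latter called 16 engorged and 57 semi-engorged contigs. A log2 fold of 2 called 14 and 61. Contigs with at least 100 reads had a median of -1.70. Reads summed per best-matching protein gave 4 engorged and 15 semi-engorged calls and a median of -0.54, and 1 contig per identical description gave 8 and 15 with a median of -0.54. Both have fewer units (43). The ratio of read shares, 0.681, was 0.649 without the most abundant member of each library. With totals that leave out the 50 most abundant contigs it was 0.796. It was 0.654 without the 11 disintegrin, ADAMTS, FtsH, meprin and zinc metalloprotease names. Leaving out members of the block numbered 49600 and above, an alternative chosen after seeing the data, gave a ratio of 0.713 with library totals unchanged. All contigs outside that block held 99.7% of engorged and 92.6% of semi-engorged reads, so totals without the block would lower that ratio. Setting the median ratio of contigs that reach 100 reads at both stages to 0 moved the median of all contigs from -0.05 to -0.16, and leaving the top 50 out moved it to 0.07. Of 25 named contigs with a call, 23 kept it with a pseudocount of 10 and with the median ratio set to 0, and 25 under the other alternatives run on them. Depth limits contigs under 1 CPM, which cannot be called.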
